A study of Mus musculus with 7 samples.

Results

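The sites described here are anchors of topologically associating domains (TADs) in male mouse liver at which cohesin and topoisomerase IIβ (Top2b) were both found with CTCF. There were 4033 of them, 70.5% of the 5722 TAD anchors on the autosomes and 7.69% of the 52436 CTCF sites that the study sorted into 4 classes. They were selected on measured binding: a site had to be in the TAD anchor class, lie on chromosomes 1 to 19, carry the study's Top2b flag and share at least 1 bp with a pooled peak of the cohesin subunit Rad21. The presence of Rad21 and of Top2b at these sites is therefore no finding, and neither is their position near TAD boundaries or the presence of a CTCF motif, which the study used to pick TAD anchors. The other autosomal TAD anchors were 1249 with Rad21 but without the Top2b flag, and 440 without a pooled Rad21 peak.

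CTCF and Rad21 were measured by chromatin immunoprecipitation and sequencing (ChIP-seq) of livers of male mice, 8 weeks old and of the outbred stock Crl:CD1(ICR), with no treatment named in the labels, with 4 libraries for CTCF and 3 for Rad21. ChIP-seq pulls down crosslinked chromatin fragments with an antibody and counts them along the genome, so that a bound site appears as a peak. The deposited lists hold peaks called on the pooled libraries of each factor. No value per library is in them, so the spread between livers is unknown, and every interval or p-value below covers counting over sites only. Whole liver was used, and a site bound in fewer cells cannot be told apart from one bound more weakly in all. Flags for Stag1, Stag2 and Top2b record overlap with peaks of other liver data sets, yes or no.

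A TAD is a stretch of chromosome whose parts contact each other more often than they contact the neighbouring stretches. CTCF is a zinc finger protein that reads a long, asymmetric DNA motif. Cohesin is a ring-shaped complex of Smc1a, Smc3, Rad21 and either Stag1 or Stag2, which is thought to enlarge DNA loops until it meets CTCF bound with its N-terminal side towards it. Boundaries of TADs therefore tend to carry CTCF motifs that point into the domains on both sides. Top2b is the topoisomerase II of non-dividing cells, which passes one DNA duplex through a break in another and so relieves twists and tangles, and it is known to occur near CTCF and cohesin.

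The motifs of the members with the strongest peaks show what these anchors look like at the level of DNA. The sequences were read from the mm9 genome on the strand that the study gives for the motif, 5′ to 3′. Capitals mark the 19 bases that best match a CTCF motif learnt from intra-TAD anchors of the same list, and 5 bases are added on either side. The name is that of the nearest protein-coding start. The first 6 lines are the members with the highest CTCF scores and the next 5 are among those with the highest Rad21 scores.
Exosc8, chr3:54539387-54539415, + strand: ggcacGGCCAGGCGGGGGCGCTGCgggcg
Rapgef1, chr2:29475199-29475227, + strand: ctccgGGCCATCAGGGGGCGCTGTggcgc
Tac4, chr11:95120590-95120618, + strand: ggttcGGCCAGTCGGGGGCACTGCtcggc
Lsm11, chr11:45758522-45758550, + strand: gccgcGGCCACCAGGGGGCAGCATagatt
Med4, chr14:73909697-73909725, + strand: cctttGCCCTGTAGATGGCGCTAGaactg
Epm2aip1, chr9:111192513-111192541, - strand: agcttTACCACCAGAGGGCGCAAAgggct
Eif4b, chr15:101896243-101896271, - strand: tagaaGGCCACCAGGGGGCAGAGAagggc
Dhx8, chr11:101594059-101594087, - strand: tgatcCGTCAGCAGAGGGCGACCGtggcc
Plcb1, chr2:134611751-134611779, + strand: ccgggAGCCGGGAGGTGCCGCTGCgtccc
Skor1, chr9:62972121-62972149, - strand: cacgcTGCCACTAGAGGGCGACAGctccg
Sox9, chr11:113026606-113026634, - strand: aaactGACCACTTGATGGCGCTGTggctc

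For comparison, the 3 TAD anchors with Rad21 but without the Top2b flag that had the highest CTCF scores carried the following matches, marked in the same way.
Dnajc11, chr4:151307746-151307774, + strand: ctccgGGCCGCCAGGGGCCGCTGTgacgt
Sdk1, chr5:141717270-141717298, + strand: ccgcgGGTCCCTAGGGGGCGCAGCgggcg
Ccdc122, chr14:77436487-77436515, + strand: gccacGGCCGCGAGGTGGCGCCCTggaga

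The match need not lie under the summit: at Exosc8 the CTCF summit was 48 bp to the 5′ side of the motif centre, and at Rapgef1 60 bp.

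The strongest CTCF peak among the members lay at chr3:54539028-54539648, with its summit 38 bp from the start of Exosc8, which encodes a subunit of the RNA exosome. Its score was 44298 on the scale of the deposited lists, where the score is 10 times −log10 of the q-value. At its summit 3974 CTCF fragments and 370 Rad21 fragments were piled up. Rapgef1, an exchange factor for the GTPase Rap1, had a CTCF score of 44002 at chr2:29474946-29475349, 87 bp from its start. Lsm11, a component of the U7 small nuclear ribonucleoprotein that processes histone mRNA, had a score of 37418 at 86 bp from its start. Med4, a subunit of the Mediator complex, combined a CTCF score of 30019 with a Rad21 score of 493 at 138 bp from its start. So the members with the highest CTCF scores were mostly at gene starts, and 6 of the 8 highest lay within 1 kb of one. The exceptions were sites 2.25 kb from the start of Tac4, a tachykinin precursor, and 18.1 kb from that of Epm2aip1.

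The highest Rad21 score, 15041, belonged to an intergenic member at chr15:101896034-101896573, 7.92 kb from the start of Eif4b, a translation initiation factor. Its CTCF score was 16458, and 1355 Rad21 fragments stood against 1463 CTCF fragments. Dhx8, an RNA helicase of the spliceosome, followed with a Rad21 score of 11397 at 98 bp from its start, in the interval chr11:101593874-101594392. At Abca14, an ABC transporter gene, the member overlapped a UTR exon and had a Rad21 score of 11124. A member in an intron of the noncoding gene 2610035D17Rik, at chr11:113026346-113026864, had a Rad21 score of 8732 and was 381 kb from Sox9, a developmental transcription factor and the nearest protein-coding start. Members with the strongest Rad21 thus included sites at protein-coding starts and sites far from any such start. None of the 8 highest by CTCF was among the 8 highest by Rad21.

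Across all members the CTCF score had a median of 3091, with quartiles of 2005 and 4476 and a range of 138 to 44298. The Rad21 score had a median of 1045, with quartiles of 521 and 1818 and a range of 30 to 15041. In fragments at the summit, the medians were 337 for CTCF and 136 for Rad21, over local backgrounds with medians of 15.1 and 9.25. The fragment counts of the factors come from libraries of unknown relative depth, so a ratio between them is comparable between sites but has no absolute meaning. Spearman's rho between the CTCF and Rad21 scores was 0.54 across the 4033 members, which share libraries and local background. A Rad21 score above the CTCF score was found at 175 members (4.34%), at 1.84% of anchors without Top2b and at 10.3% of all autosomal class-list sites with Rad21.

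The smallest overlap that admitted a member was 117 bp, at chr19:42854312-42854748, and the median overlap was 449 bp. On the other side of the rule, 27 TAD anchors carried the Top2b flag but touched no Rad21 peak. The closest of them lay 67 bp from one and the median gap was 5.48 kb. Their CTCF scores ran from 177 to 2729 with a median of 646, and Stag2 was flagged at all 27.

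The first comparison asked how members differ from TAD anchors that had Rad21 but lacked Top2b. CTCF was stronger at members, with a median score of 3091 against 1331. The probability that a member exceeds an anchor without Top2b, written below as AUC, was 0.789, where 0.5 means no difference. The whole distribution was shifted (exact two-sided Kolmogorov-Smirnov test, D = 0.459, p = 4.09e-182, adjusted over the 4 such tests p = 8.18e-182). Members had the higher median on 19 of 19 autosomes.

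Rad21 was stronger at members as well. Its median score was 1045 at members and 243 at anchors without Top2b, and its median number of summit fragments 136 and 51 (AUC 0.847). The exact two-sided Kolmogorov-Smirnov test gave D = 0.551 with p = 3.20e-268 and adjusted p = 1.28e-267, and members were again higher on all 19 autosomes. The lower quartile of members, 521, lay above the upper quartile of the anchors without Top2b, 452.

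**Figure D1:**
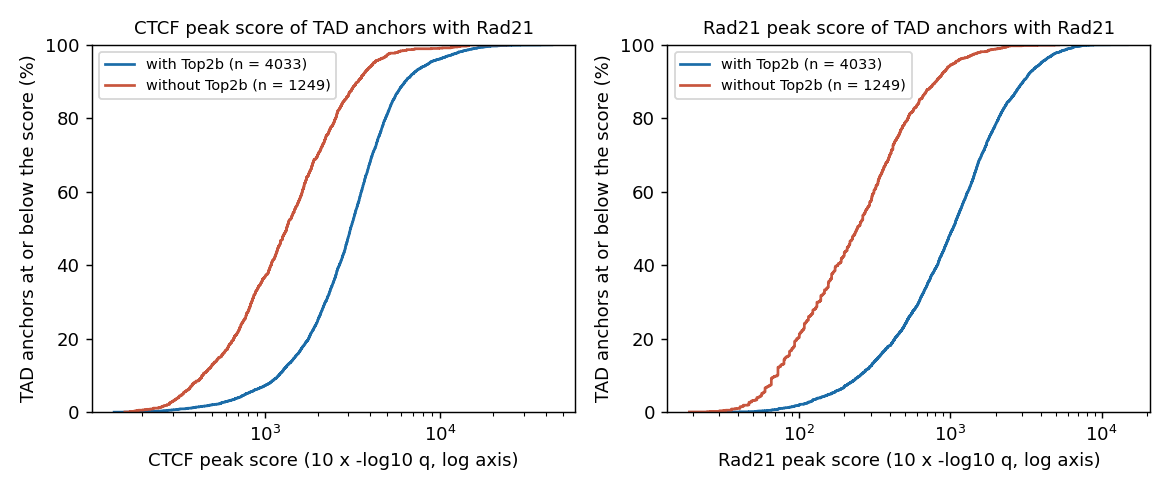
Cumulative share of TAD anchors with Rad21 (percent, y axis) at or below a given peak score (x axis, log scale) for CTCF on the left and Rad21 on the right. The curve of the 4033 anchors with Top2b lies to the right of that of the 1249 without it in both panels, with medians of 3091 against 1331 for CTCF and 1045 against 243 for Rad21.

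CTCF and Rad21 strength go together, so each was compared at like values of the other. Within 10 bins of CTCF score the Rad21 AUC was 0.776 on average (standard error 0.0082) and members were higher in 10 of 10 bins. Within 10 bins of Rad21 score the CTCF AUC was 0.616 (standard error 0.014) over the 9 bins that held at least 5 anchors of each kind, with members higher in all 9. The share of anchors with Top2b gives the same picture from the other side. It was 29.3% (95% Wilson interval 25.6 to 33.3%) in the bin of lowest Rad21 score and 99.2% (98.1 to 99.7%) in the highest. By CTCF score it ran from 38.4% (34.3 to 42.6%) to 95.5% (93.3 to 96.9%). When both scores were cut into 3 equal parts, anchors weak in both carried Top2b in 39.2% of 1145 cases. Anchors with weak CTCF and strong Rad21 carried it in 90.2% of 92, and those with strong CTCF and weak Rad21 in 69.4% of 183. Anchors strong in both carried it in 98.1% of 1054. How far the Top2b data could detect a weak site was not tested, since the lists hold the flag and no Top2b strength.

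**Figure D2:**
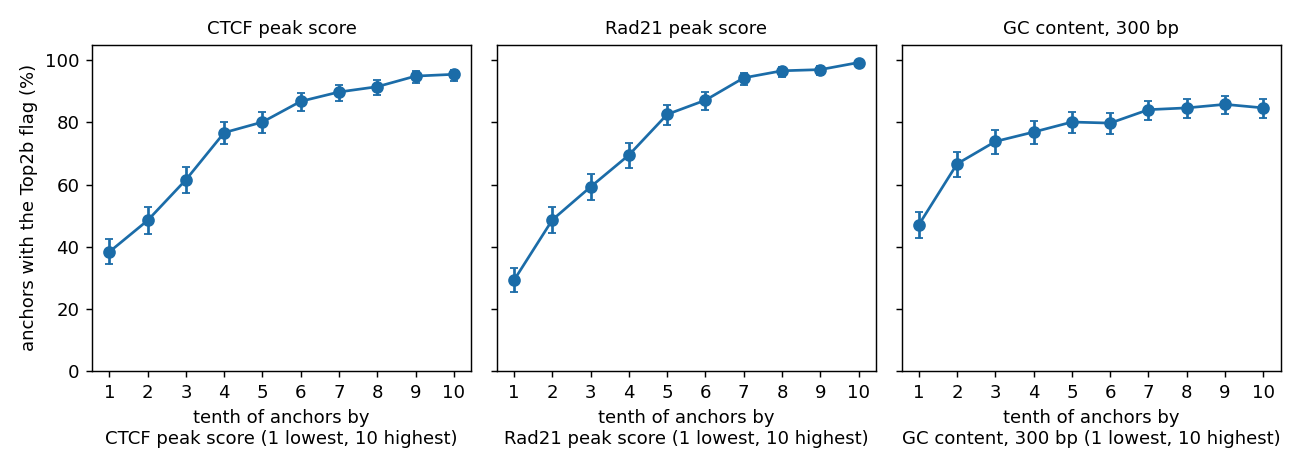
Share of the 5282 TAD anchors with Rad21 that carry the Top2b flag (percent, y axis, with 95% Wilson intervals as bars) in 10 equal bins of CTCF score, Rad21 score and GC content (x axes, lowest bin on the left). The share climbs from 38.4 to 95.5% by CTCF score and from 29.3 to 99.2% by Rad21 score, while by GC content it is 47.1% in the lowest bin and between 66.7 and 85.8% in the others.

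The CTCF motif itself differed little. The deposited motif score had a median of 17.97 at members and 17.0 at anchors without Top2b (AUC 0.551, exact two-sided Kolmogorov-Smirnov test, D = 0.1002, p = 8.55e-09, adjusted p = 8.55e-09). At like CTCF score the AUC was 0.485 (standard error 0.012), which is on the other side of 0.5 and did not differ from it at the 95% level. The score of the motif learnt from intra-TAD anchors, an alternative added after the data were seen, gave an AUC of 0.503 with p = 0.895 in the exact test. A match of at least 8 bits was found at 97.9% of members and 98.3% of anchors without Top2b. Over all autosomal class-list sites with a motif it was 94.5%. The better match was on the deposited strand at 99.0% of members, 99.4% of anchors without Top2b and 97.7% of all such sites.

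The letters within the match also differed between the groups. The core of the CTCF motif can be spelled in several ways, and 4 spellings of 7 bases were counted within the 19-base match, on the strand of the motif. They differ at inner bases, and none can lie at the position of another. One spelling, AGAGGGC, was held by 20.5% of members (19.2 to 21.7%), by 31.2% of anchors without Top2b (28.7 to 33.8%) and by 43.0% of the 440 anchors without Rad21 (38.4 to 47.6%). The motifs of Epm2aip1, Dhx8 and Skor1 above are of this form. The order was the opposite for AGGTGGC, at 17.95% of members (16.8 to 19.2%), 10.4% of anchors without Top2b (8.83 to 12.2%) and 6.82% of anchors without Rad21 (4.82 to 9.57%). It was so as well for AGATGGC, the form at Med4, with 11.1% (10.2 to 12.1%), 6.49% (5.25 to 7.99%) and 4.09% (2.60 to 6.37%). The form at Rapgef1, Lsm11 and Eif4b, AGGGGGC, was held by 13.7% of members (12.7 to 14.8%) and 15.1% of anchors without Top2b (13.3 to 17.2%). Intra-TAD anchors with Rad21 and Top2b held AGAGGGC at 21.6% (20.6 to 22.6%) and AGGTGGC at 16.0% (15.1 to 16.9%), with intervals that overlap those of members. Their shares of AGGGGGC, 19.5% (18.6 to 20.4%), and of AGATGGC, 7.58% (6.98 to 8.23%), lay above and below those of members, with intervals apart. Over all autosomal class-list sites with a motif, the match held AGAGGGC at 26.5%. It held AGGTGGC at 10.5%, AGATGGC at 5.85% and AGGGGGC at 13.8%.

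For the first 3 of these forms the sign was the same between sites of like Rad21 score. There members minus anchors without Top2b came to −6.08 percentage points for AGAGGGC (−10.1 to −2.08). They came to 4.81 points for AGGTGGC (1.17 to 8.44) and to 3.39 points for the form at Med4 (1.01 to 5.76). For AGGGGGC the difference was 0.878 points (−1.98 to 3.74), and between sites of like CTCF score −4.22 points (−7.42 to −1.03). In windows of 300 bp around the CTCF summit, on either strand, AGAGGGC stood at 25.5% of members and 27.1% of all autosomal sites of the class list. For AGGTGGC the shares were 22.3 and 14.8%. For AGGGGGC they were 17.1 and 16.0%. The order given above for AGATGGC did not hold in these windows, where it stood at 16.8% of members, 17.1% of anchors without Top2b, 110 of the 440 anchors without Rad21 and 15.2% of all sites. The words were counted as a description and without a test.

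The DNA around the summit was richer in G and C at members than at anchors without Top2b, but not than at CTCF sites in general. GC content in the 300 bp around the CTCF summit had a median of 48.0% against 43.7% (AUC 0.657, exact two-sided Kolmogorov-Smirnov test, D = 0.243, p = 3.74e-50, adjusted p = 4.99e-50). It was higher on all 19 autosomes, and it held for sites more than 1 kb from a gene start, with an AUC of 0.654. At like CTCF score the AUC was 0.563 (standard error 0.012) and members were higher in 8 of 10 bins. In the bin of highest CTCF score it was 0.257, from 24 anchors without Top2b, of which 15 lay within 1 kb of a start. At least 10 CpG dinucleotides stood in the 300 bp at 18.1% of members and 7.05% of anchors without Top2b. Over all autosomal class-list sites it was 25.8%. A CpG lay inside the motif match at 45.4% of members, 36.1% of anchors without Top2b and 44.1% of all sites with a motif. Median GC content was 49.3% over all sites and 50.3% at intra-TAD anchors with Rad21 and Top2b, both above the 48.0% of members. The methylation of these CpGs was not analysed here.

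Cohesin contains either Stag1 or Stag2, and flags for both were available. Stag2 was flagged at 4027 members (99.9%) and Stag1 at 3942 (97.7%), beside 88.3% and 70.8% of all autosomal sites of the class list. Every member overlaps a peak of Rad21, a subunit of the same complex, against 41861 of those 51203 sites. These differences from all sites are therefore partly set by the rule. Both flags stood at 3940 members. Stag2 alone stood at 87, Stag1 alone at 2 and neither at 4. At TAD anchors with Rad21 but no Top2b, Stag1 was flagged at 84.5% and Stag2 at 94.7%. Members exceeded them by 13.2 percentage points for Stag1 (95% Newcombe interval 11.2 to 15.3) and by 5.14 points for Stag2 (4.01 to 6.52). Members were higher on 19 of 19 autosomes for each. When a Rad21 score of at least 100 was required, the differences were 7.74 points for Stag1 and 2.68 points for Stag2. At like CTCF score the differences were 10.7 points for Stag1 (standard error 1.42) and 2.67 points for Stag2 (standard error 0.407). At like Rad21 score, an alternative added after the data were seen, they were 2.05 points (standard error 0.654) and 1.91 points (standard error 0.284), with members higher in 4 and 3 of the 9 bins. In bins 6 to 9 each flag stood at 100% of both kinds of anchor, so those bins leave no room for a difference. In the lowest bin Stag1 was flagged at 76.1% of members and 65.0% of anchors without Top2b, and Stag2 at 98.7 and 86.6%. The Stag2 flag covered nearly every member, so its share had little room to vary.

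The second question was where members lie relative to genes. Of the members' CTCF summits 56.0% were intergenic, beside 46.0% at anchors without Top2b and 41.7% of all autosomal class-list sites. Introns held 36.3% of members, 47.7% of anchors without Top2b and 43.3% of all sites. UTR exons of GENCODE vM1 held 3.35% of members, 2.32% of anchors without Top2b and 7.29% of all sites, and coding exons 2.53, 2.64 and 5.77%. The median distance to the nearest start of a protein-coding gene was 16.4 kb. At 554 members the summit lay within 1 kb of such a start, a share of 13.7% beside 23.6% of all autosomal sites of the class list. Anchors without Top2b had such a start at 94 of 1249 (7.53%), 6.21 percentage points fewer than members (4.31 to 7.94), and on 17 of 19 autosomes members were higher. At like CTCF score it was 1.501 points (standard error 1.57). At like Rad21 score, an alternative added after the data were seen, it was 10.2 points (standard error 1.54) with members higher in 8 of 9 bins. Within 5 kb in place of 1 kb it was 2.53 points with an interval that reached 0.

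The promoter share ran in opposite directions at the ends of the CTCF range. In the bin of lowest CTCF score 37.4% of 203 members lay within 1 kb of a start, against 7.06% of 326 anchors without Top2b. In the bin of highest CTCF score the shares were 34.7% of 504 members and 62.5% of 24 anchors without Top2b. Between these, in the bins 5 to 8, members at promoters made up 5.38 to 8.27%. Of the 554 promoter members, 76 were in the lowest bin and 175 in the highest.

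**Figure D3:**
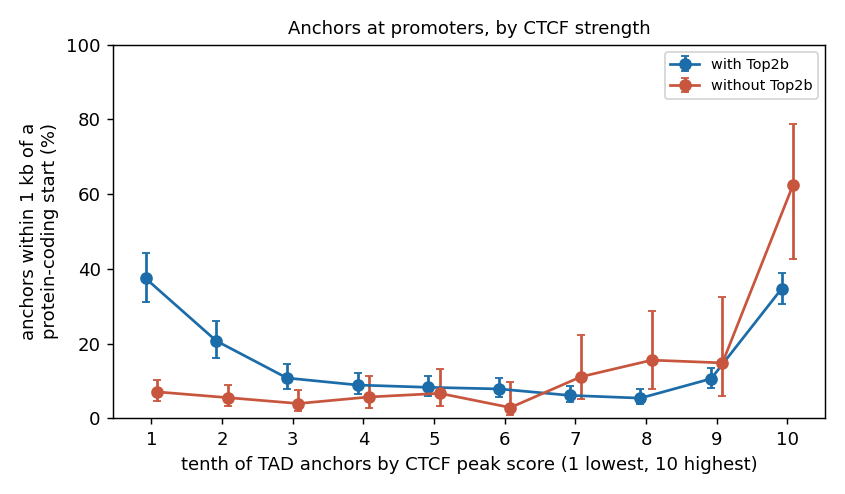
Share of TAD anchors with Rad21 whose CTCF summit lies within 1 kb of a protein-coding start (percent, y axis, 95% Wilson intervals) in 10 equal bins of CTCF score (x axis), for anchors with and without Top2b. Members are at 37.4% in the lowest bin and 34.7% in the highest, and anchors without Top2b at 7.06% and 62.5%, the last from 24 anchors.

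Promoter members had less Rad21 for their CTCF than distal ones. The 554 promoter members had median scores of 3221 for CTCF and 550 for Rad21, and the other 3479 had 3076 and 1111. The ratio of Rad21 to CTCF summit fragments had quartiles of 0.160 and 0.492 at promoters and of 0.302 and 0.656 elsewhere, with medians of 0.307 and 0.469. The Stag1 flag was missing from 58 of the 554 promoter members and from 33 of the 3479 others (shares with the flag 89.5% and 99.1%). GC content had medians of 59.3% and 47.0%, and the deposited motif score medians of 14.7 and 18.3. These are descriptions, without a test.

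The 5 members with the lowest ratio of Rad21 to CTCF fragments each lay within 150 bp of a start. Rab12, a small GTPase of membrane traffic, had 1032 CTCF and 29 Rad21 fragments, a ratio of 0.0281. Med4, described above, had 2550 and 77, a ratio of 0.0302. Mrps33, a protein of the mitochondrial ribosome, and the sorting nexins Snx19 and Snx16 followed with ratios of 0.0342, 0.0343 and 0.0373. Snx16 was the only one of the 5 without the Stag1 flag. The highest ratio, 2.02, was in an intron of Rab11fip4, a partner of the recycling GTPase Rab11, with 307 CTCF and 619 Rad21 fragments at chr11:79500167-79500781. Next came sites near Sept9, a cytoskeletal septin, with a ratio of 1.93 and Zdhhc19, a palmitoyltransferase, with 1.71. Of the 5 highest, the site near Scgb1c1 was the only one within 1 kb of a start, at 589 bp.

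**Figure D4:**
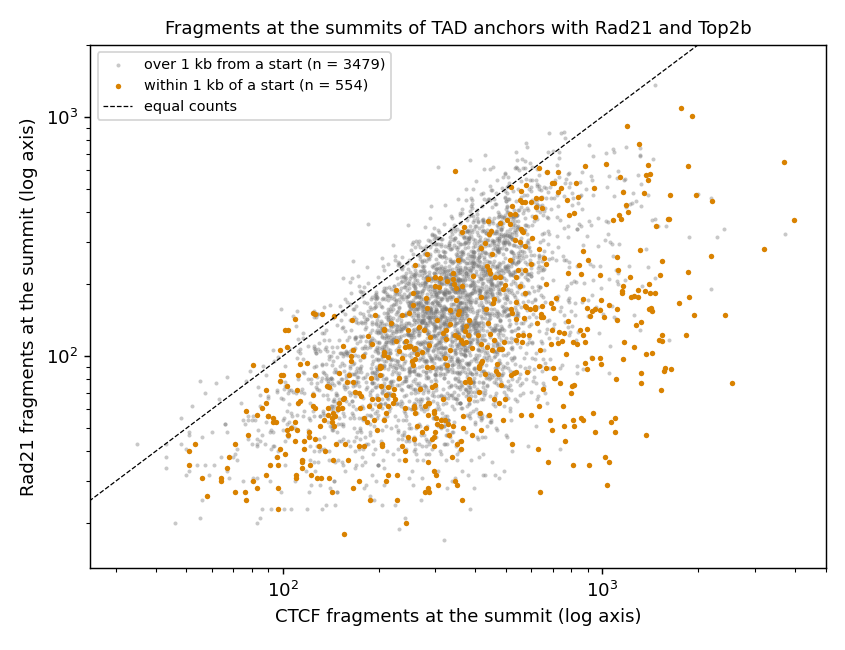
Rad21 fragments (y axis, log scale) against CTCF fragments (x axis, log scale) at the summits of the 4033 members, with the 554 members within 1 kb of a protein-coding start in orange, the other 3479 in grey and equal counts as a dashed line. Promoter members reach further to the right at low Rad21 values, and their median ratio of Rad21 to CTCF fragments is 0.307 against 0.469 for the others.

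At the weak end, the 5 members of lowest CTCF score held 35 to 57 CTCF fragments and 34 to 70 Rad21 fragments. The lowest, with a score of 138, was in an intron of Syt14, a synaptotagmin. Those at Oxsm, an enzyme of mitochondrial fatty acid synthesis, and Dctn6, a subunit of dynactin, lay 257 and 55 bp from a start. That in Dpy30, a subunit of histone H3K4 methyltransferase complexes, was the only one of the 5 without the Stag1 flag. The remaining one was 164 kb from Ppp1r3b, which targets a phosphatase to liver glycogen.

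The side of the motif on which a gene starts also varied with distance. Among the 442 members within 500 bp of a protein-coding start, the start lay on the 3′ side of the motif at 62.2% (57.6 to 66.6%). At 20 to 100 kb it did so at 43.6% of 1433 (41.1 to 46.2%). The shares were 60.9% of 737 and 48.7% of 1778 at intra-TAD anchors with Rad21 and Top2b. These sites anchor loops that the study predicted inside TADs, and only loops that held a start were kept. Their motifs point into the loop, so the side of the start is not free of this selection. At anchors without Top2b within 500 bp the share was 54.8% of 62, with an interval of 42.5 to 66.6%. At 20 to 100 kb it was 47.0% of 453 there (42.5 to 51.6%), an interval that overlaps that of members.

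Rad21 was displaced along the motif. At members the Rad21 summit lay a median of 21 bp to the 3′ side of the CTCF summit (95% interval of the median 19 to 22), and on that side at 3098 of 4033 (76.8%). Over all autosomal class-list sites with a motif and Rad21 the median was 17 bp, and 68.3% lay on that side. The median was positive on 19 of 19 autosomes, between 16 and 25 bp. Measured from the centre of the motif match, CTCF summits had a median of −11 bp and Rad21 summits of 16 bp. The displacement was 12 bp (7 to 15) in the lowest 20% of members by Rad21 score and 25 bp (23 to 27) in the highest 20%. It was 17 bp (15 to 20) at anchors without Top2b and 20 bp (19 to 21) at intra-TAD anchors with Rad21 and Top2b, where 70.2% and 76.5% of summits lay on the 3′ side.

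**Figure D5:**
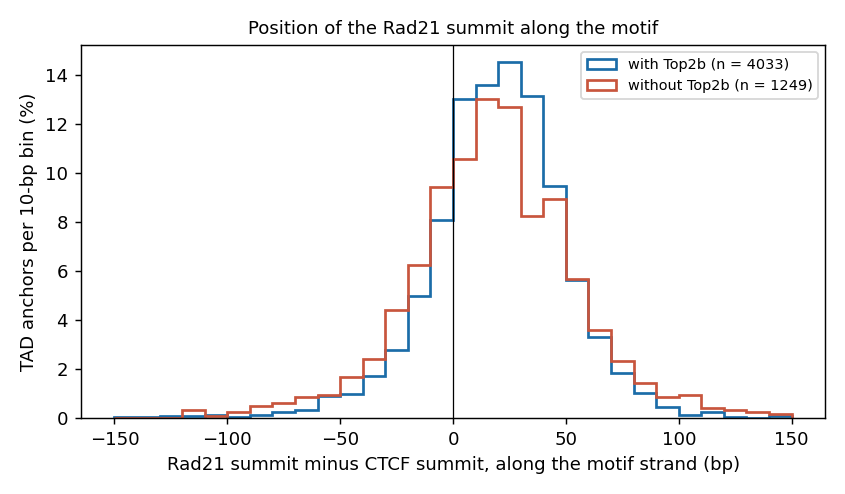
Position of the Rad21 summit relative to the CTCF summit along the motif strand (x axis, bp, positive towards the 3′ end of the motif) as percent of anchors per 10-bp bin (y axis). Both curves peak to the right of 0, with medians of 21 bp for the 4033 anchors with Top2b and 17 bp for the 1249 without it.

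The third comparison was with intra-TAD anchors that also had Rad21 and Top2b, 6950 sites on the autosomes. The study chose these by CTCF, Rad21 and motif scores, so those scores are given without a test. It also dropped predicted loops without a start of a protein-coding gene or of a liver-expressed noncoding RNA. Nearness to starts is therefore not free of this selection, and how far the filter shapes it was not tested. Medians at members and intra-TAD anchors were 3091 and 3359 for the CTCF score, 1045 and 1198 for the Rad21 score, and 17.97 and 18.08 for the motif score. The Stag1 flag was slightly rarer at members, at 97.7% against 98.9%, a difference of −1.13 percentage points (−1.69 to −0.636). At like CTCF score it was −0.792 points (standard error 0.255), with members higher in 0 of 10 bins. The intra-TAD anchors were also chosen on Rad21 score, and whether the difference holds at like Rad21 score was not tested. For Stag2 the difference was 0.0239 points (−0.166 to 0.176), and for starts within 1 kb it was −0.580 points (−1.91 to 0.780), so neither exceeded counting error. Within 5 kb of a start lay 26.6% of members and 33.5% of intra-TAD anchors.

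The fourth question was whether Top2b at one anchor goes with Top2b at the anchor next to it. For 2956 members the nearest other TAD anchor with Rad21 was within 100 kb, and it carried Top2b in 74.4%. For 1009 anchors without Top2b the nearest one carried it in 74.5%. The difference was −0.138 percentage points (−3.19 to 3.04). Anchors that are nearest to each other were counted from both sides, so this interval is too narrow. There were 1971 pairs of mutually nearest anchors, at a median distance of 22.1 kb. Both carried the flag in 1091 (55.4%), 1 in 752 (38.2%) and neither in 128 (6.49%). The share of flagged anchors in these pairs was 74.4%, and its square is 55.4%.

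Motif order among members follows from how TAD anchors were picked and is given as a description. Of the 4014 pairs of consecutive members, 34.7% pointed away from each other, 34.7% towards each other and 30.6% the same way. All 233 pairs less than 10 kb apart pointed away from each other. Between 100 and 500 kb, 8.58% of 1644 pairs did so and 50.5% pointed towards each other.

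Members were found on every autosome, from 123 on chromosome 19 to 321 on chromosome 1. Their density ran from 1.30 per Mb on chromosome 14 to 2.08 per Mb on chromosome 11. The share of TAD anchors with Rad21 that carried Top2b was lowest on chromosome 5, at 69.4%, and highest on chromosome 10, at 85.1%.

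Genes near members were counted in lists of liver and control genes. Of 21418 autosomal protein-coding genes, 1771 (8.27%) had a member within 10 kb of a start. Among 17 genes of CTCF, cohesin and the type II topoisomerases 4 did: Smc3, a core cohesin subunit, Pds5a and Pds5b, which regulate cohesin release, and Top2b itself. The Pds5b site, 47 bp from its start at chr5:151476060-151476580, had a CTCF score of 17944 and a Rad21 score of 3356. Smc3 had 5867 and 3030, and Pds5a 6269 and 349. The site of Top2b lay 9.16 kb from a start, in an intron, with scores of 4044 and 2982.

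Among 18 hepatocyte transcription factors 2 were near members. These were Foxa1, a pioneer factor, with CTCF and Rad21 scores of 2005 and 365, and Nr1i2, the xenobiotic receptor PXR, with 1527 and 478. Among 27 genes of plasma proteins 3 were, namely Apob, the core protein of low-density lipoprotein, with 6017 and 1826, Ambp with 3984 and 3023, and Plg, the precursor of plasmin, with 3420 and 286. Of 16 clock genes 2, Npas2 and Cry2, were near members, and of 15 genes of cholesterol and bile acid metabolism also 2, Sqle and Slc10a1, the bile acid importer of hepatocytes. Slc10a1 had the weakest CTCF of these, with a score of 478. None of the 14 genes of glucose and urea metabolism had a member within 10 kb. Among 91 cytochrome P450 genes 4 did, of which Cyp26b1 and Cyp26a1, which break down retinoic acid, had CTCF scores of 6891 and 5087.

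In the Hox clusters 10 of 40 genes were near members, but these rest on only 4 sites. One between Hoxd12 and Hoxd13, at chr2:74510979-74511391, had CTCF and Rad21 scores of 5317 and 2986. A site 2.93 kb from the start of Hoxb8 had 3295 and 3276, and another in a UTR exon of Hoxa10 had 2789 and 275 and lacked the Stag1 flag. Among 76 ribosomal protein genes 10 were near a member. At 3 of these the summit was within 1 kb of the start: Rpl10a at 32 bp with a CTCF score of 11302, Rpl5 at 16 bp with 6294 and Rpl32 at 356 bp with 1679. The Rad21 scores there were 902, 253 and 100.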

How the data were processed

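CTCF and Rad21 ChIP-seq data from male mouse liver were analysed as 3 deposited lists: pooled CTCF peaks, pooled Rad21 peaks and CTCF sites in 4 classes. Per the study's methods and processing notes, the authors pooled the reads of each factor, mapped unique reads to mm9 with Bowtie2, called peaks with MACS2, and removed blacklisted regions. The deposited peak score is 10 times −log10 of the q-value, and the deposited fold is a ratio of summit to local background. The deposited −log10 p and fold were used together to recover summit fragments and background, whole within 0.05 at 99.996% of CTCF and 99.997% of Rad21 peaks. The motif score and strand were assigned by the authors. Flag columns have no header and were named from the study's description. All 22 chromosome names were in the reference (NCBIM37, with GENCODE vM1), and 0 sites passed a chromosome end.

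Each site took its strongest overlapping peak. Distributions were compared by exact two-sided Kolmogorov-Smirnov tests with Benjamini-Hochberg adjustment over 4 tests, and shares by Newcombe intervals from 95% Wilson limits. Bins were 10 equal parts. A motif of 19 bases was learnt from the strongest 2000 intra-TAD anchors. Named members were the 8 highest by CTCF score, the 8 highest by Rad21 score, the 5 lowest by CTCF score, the 5 highest and lowest by Rad21 to CTCF fragments, and those within 10 kb of listed genes. Members and lists were chosen with earlier results of these data known. Functions were tested on simulated data. Tests ran in SciPy 1.17.1 under Python 3.11.15, tables in pandas 2.3.3 with NumPy 2.4.6, sequence access in samtools 1.23.1 and pysam 0.24.0, and plots in Matplotlib 3.10.9.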

Additional observations from a re-analysis of the deposited data

How the results depend on the processing

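The number of members, 4033, was 3942 with a reciprocal overlap of 50%, 3885 with summits within 100 bp and 3958 with a Rad21 score of at least 100. Of 48 alternative values, 42 kept the direction and the side of the threshold. The motif score turned from an AUC of 0.551 to 0.485 within 10 bins of CTCF score and was 0.503 with the learnt motif. The promoter difference lost its call within 10 bins of CTCF score, at 1.501 points, and within 5 kb of a start, at 2.53 points. The neighbour difference of −0.138 points, which passed no threshold, turned to 0.520 points within 20 kb and 0.517 points within 10 bins of the CTCF score of the neighbour. The cause was not tested. Binning by Rad21 score and the learnt motif were chosen after seeing the data.

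No paired analysis was possible because the deposited lists hold peaks of pooled libraries and no values per library. For the same reason leaving out each library in turn was not run. Values at like strength are unweighted means over bins, so bins of high Rad21 score count fully although they hold few anchors without Top2b, 16 to 30 in bins 7 to 9. The highest bin, with 4, was left out. A Top2b flag depends on the depth of data that were not analysed here.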
